A study of Mus musculus with 2 samples.

Results

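The genes described here are 8 members of the class II presentation machinery and of the dendritic cell lineage, *H2-Aa*, *H2-Ab1*, *H2-Eb1*, *H2-DMa*, *Cd74*, *Ciita*, *Cd207* and *Itgax*, of 25810 genes with a symbol in the deposited files. They were found by their symbols, and all 8 were present in both libraries. The members were selected on the RPM ratios of *Igfbp7*-/- to WT in these same libraries, *Cd207* being chosen as one of the largest falls, so the ratios below are a description and were not tested. *Cd207* is known as a marker of Langerhans cells, the dendritic cells of the epidermis, but other dendritic cells make it too. *Krt10* and *Krt1*, keratins of the epidermis, reached at most 1.34 and 0.524 RPM, the scaled read count explained below, and *Flg* and *Ivl* had no reads, so the 2 cell markers are called dendritic cell genes here.

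The data were 2 RNA-Seq libraries of mammary epithelial cells (MECs) from the inguinal glands of female mice on lactation day 3, 1 from wild type (WT) mice and 1 from *Igfbp7*-/- mice, in which exon 1 of *Igfbp7* is deleted through the germline. Both libraries were made after magnetic removal of cells that carry CD45, CD31 or Ter119, the surface proteins of leukocytes, endothelial cells and erythroid cells. The labels print CD35 for CD31, and they give C57BL/6 as the background of both samples, whereas the methods state that the knockout was made on CD1. The number of animals in each library was not given in the sources used here, and a single library of each genotype leaves no measure of how animals vary. *Igfbp7*, the deleted gene, had 5224 reads in WT and 37 in *Igfbp7*-/-, which corresponded to 152.2 and 1.06 RPM, the reads on a gene per 1000000 reads mapped in its library.

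Class II molecules are pairs of an alpha and a beta chain that carry peptides from endosomes to the surface of antigen presenting cells, where CD4 T cells read them. In the mouse they are the A and the E molecules. The invariant chain guards the groove of the new pair, the DM molecule exchanges the last piece of the invariant chain for peptide, and the transactivator CIITA, which binds no DNA itself, switches the genes on through factors seated on the X and Y boxes of their promoters. Dendritic cells, macrophages and B cells are the usual sources of these RNAs, and in the mammary gland such cells lie within and around the ducts and alveoli.

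Promoter sequences are shown for 3 members, because the boxes that CIITA works through lie in the promoters of the class II chains and *Cd207* is a cell marker outside that family. Each is the RefSeq window of 300 bases, from 250 bases before to 50 bases after the transcript start (build GRCm38.p6), printed 5′ to 3′ on the strand of the gene. Capitals mark CCAAT, the core of the Y box, and TGACG, a core of the X2 box, on either strand. The windows were *H2-Aa* at chr17:34287774-34288073 (minus strand), *H2-Eb1* at chr17:34305617-34305916 (plus strand) and *Cd207* at chr6:83677808-83678107 (minus strand).
H2-Aa: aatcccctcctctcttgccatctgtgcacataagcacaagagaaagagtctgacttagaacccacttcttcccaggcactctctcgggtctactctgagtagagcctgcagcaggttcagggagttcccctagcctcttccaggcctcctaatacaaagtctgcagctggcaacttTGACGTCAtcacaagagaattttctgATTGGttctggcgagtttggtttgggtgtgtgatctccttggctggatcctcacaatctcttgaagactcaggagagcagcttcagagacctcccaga
H2-Eb1: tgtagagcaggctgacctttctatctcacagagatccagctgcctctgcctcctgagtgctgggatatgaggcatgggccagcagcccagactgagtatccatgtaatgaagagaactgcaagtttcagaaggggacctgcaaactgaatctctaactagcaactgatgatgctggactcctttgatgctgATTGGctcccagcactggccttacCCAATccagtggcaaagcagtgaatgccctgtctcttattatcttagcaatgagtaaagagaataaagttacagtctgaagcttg
Cd207: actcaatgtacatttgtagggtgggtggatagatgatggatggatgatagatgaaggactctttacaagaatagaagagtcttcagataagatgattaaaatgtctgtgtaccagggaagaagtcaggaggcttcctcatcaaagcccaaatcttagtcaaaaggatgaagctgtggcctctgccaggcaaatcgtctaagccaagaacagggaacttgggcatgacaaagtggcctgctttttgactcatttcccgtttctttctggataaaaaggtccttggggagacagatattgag
In *H2-Aa* the Y core began 48 bases before the start, with 2 overlapping X2 cores, 1 on each strand, at 74 and 71 bases. *H2-Eb1* held Y cores at 59 and 35 bases and no TGACG, and *Cd207* held neither motif. Of all 32851 windows in the table, 37.4% held a Y core and 20.8% an X2 core. Among 5 members whose windows were searched, 4 held a Y core in at least 1 window. That of *H2-DMa*, in its second window only, lay at 198 bases and that of *Itgax* at 178 bases. Of 8 class II genes with a window, members included, 7 held a Y core between 35 and 110 bases before the start. Of all windows, 16.5% held a Y core in that range. This range was set after the positions had been seen, and a match to these letters does not show that a factor binds there. Only these letters were searched, so a window without TGACG can still hold an X2 box of other letters. Of the other 3 members, *H2-Ab1* and *Ciita* had no window among the sequences used here, and *Cd74* was left out of the search.

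Dividing the deposited counts by the deposited RPM gave totals of 34327854 (WT) and 35016847 (*Igfbp7*-/-) for mapped reads. The listed genes held 82.3% of them in WT and 72.3% in *Igfbp7*-/-, and 1 read came to 0.0291 and 0.0286 RPM, respectively. Each difference is given as the log2 ratio of *Igfbp7*-/- to WT after 0.1 RPM was added to both values, with a 95% Clopper-Pearson interval computed on read pairs without the added 0.1. The interval covers counting error only. A gene was counted as lower or higher at 1.5-fold or more. This was done for the 14026 genes that reached a minimum of 1 RPM in WT or in *Igfbp7*-/-. A lower value in these cell mixtures can come from fewer cells of a type or from less RNA per cell, which cannot be told apart.

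All 8 members passed the minimum of 1 RPM, and *H2-DMa*, *Ciita* and *Cd207* passed it through the WT library alone. All 8 were lower in *Igfbp7*-/- by at least 1.5-fold, beside 23.0% of all 14026 genes that were lower and 21.4% that were higher. All 8 were also lower by at least 4-fold (5 of 8 when 1 RPM was added in place of 0.1), beside 3.91% of all genes, and none was higher. These shares of all genes moved with the scaling, to 18.6% lower and 30.6% higher when counts were scaled to the reads that listed genes held, and to 27.9% and 16.7% without the 20 most abundant genes, while the members stayed lower in both. Because the members were selected with these ratios known, nothing is read from these counts. The log2 ratios ran from -5.68 for *H2-Eb1* to -2.22 for *Itgax*, with a median of -3.38 beside 0.035 for all genes. Summed over the members, the level went from 785.4 RPM in WT to 85.8 RPM in *Igfbp7*-/-.

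**Figure D1:**
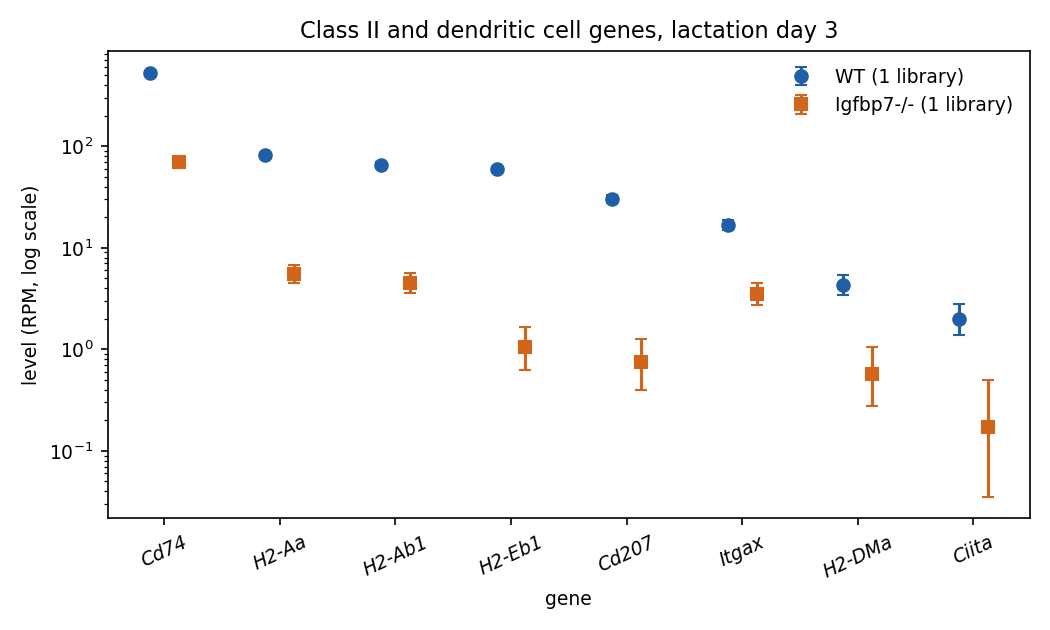
Level of each member in RPM (log scale) in the WT library (blue circles) and the Igfbp7-/- library (orange squares), with 95% intervals of the read pairs that cover counting error only. Every member sits lower in Igfbp7-/-, from 526.6 against 69.7 RPM for Cd74 to 1.98 against 0.171 RPM for Ciita.

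The chains of the A molecule had similar values. *H2-Aa*, the alpha chain (chromosome 17, 34406276 to 34424772, minus strand, NCBIM37), had 2783 reads in WT and 195 in *Igfbp7*-/-, or 81.1 and 5.57 RPM. Its level was 14.3-fold lower in *Igfbp7*-/-, a log2 ratio of -3.84 (-4.18 to -3.57). *H2-Ab1*, the beta chain (chromosome 17, 34400154 to 34406363, plus strand), had 2237 and 158 reads, or 65.2 and 4.51 RPM, a log2 ratio of -3.82 (-4.20 to -3.52). The proportion of the pair differed little. *H2-Aa* had 1.24 reads per read of *H2-Ab1* in WT and 1.23 in *Igfbp7*-/-, a log2 change of -0.01 (-0.46 to 0.46). The annotated genes share 88 bp on opposite strands, and as the use of strand in the counting was not given, reads from that overlap could be counted for either gene.

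The chains of the E molecule were lower by a larger factor than those of the A molecule. *H2-Eb1*, the E beta chain (chromosome 17, 34442828 to 34453144, plus strand), had 2031 reads in WT and 37 in *Igfbp7*-/-, or 59.2 and 1.06 RPM. This was a log2 ratio of -5.68 (-6.56 to -5.15), the fourth lowest of all genes tested. The row LOC100504404, which RefSeq lists as *H2-Ea*, the E alpha chain, is not among the 8 members and had 2646 and 28 reads, or 77.1 and 0.800 RPM, with a log2 ratio of -6.42 (-7.47 to -5.84). Together the E chains had 0.932 reads per read of the A chains in WT and 0.184 in *Igfbp7*-/-, 5.12-fold lower (3.48 to 7.75). Within the E pair the proportion changed by -0.74 on the log2 scale, with an interval from -1.87 to 0.35 that includes no change.

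The C57BL/6 haplotype of the H2 region is known to make no E alpha chain, because the promoter of that gene is deleted, and RefSeq lists *H2-Ea* as a transcribed pseudogene. The 2646 reads on that row in WT therefore go against the C57BL/6 label for this locus. Class I genes of the same region also differed in opposite directions. *H2-D1* went from 130.7 to 741.0 RPM (log2 ratio 2.50), while *H2-K1* went from 127.3 to 36.0 RPM (-1.82), so that the reads of *H2-D1* per read of *H2-K1* were 1.03 in WT and 20.6 in *Igfbp7*-/-. With 1 library each, a difference of H2 haplotype and the *Igfbp7* genotype cannot be told apart, and what mapping reads of another haplotype to this build with at most 3 mismatches does to the counts of H2 genes was not tested.

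*Cd74* encodes the invariant chain and was the highest member in RPM and per length. It lies on chromosome 18 (60963502 to 60972300, plus strand) and had 18076 reads in WT and 2440 in *Igfbp7*-/-, or 526.6 and 69.7 RPM. The difference was 7.55-fold, a log2 ratio of -2.92 with the narrowest interval of the group (-3.01 to -2.83). *Cd74* thus differed by less than the chains it binds, since its reads per read of the A chains were 3.60 in WT and 6.91 in *Igfbp7*-/-, 1.92-fold higher (1.63 to 2.28). *H2-DMa*, the alpha chain of the peptide exchange molecule DM (chromosome 17, 34272127 to 34276046, plus strand), had 149 and 20 reads, or 4.34 and 0.571 RPM. Its log2 ratio was -2.73 (-4.04 to -1.97). Relative to *H2-Aa* its change of 0.94 on the log2 scale (-0.22 to 1.96) was not distinguishable from none at this depth.

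*Ciita*, the transactivator, was the lowest member in RPM and per length. The gene (chromosome 16, 10480237 to 10527657, plus strand) had 68 reads in WT and 6 in *Igfbp7*-/-, or 1.98 and 0.171 RPM. Its log2 ratio of -2.94 had the widest interval (-5.88 to -1.86), since 6 reads were few. Set against its target *H2-Aa*, *Ciita* changed by 0.33 on the log2 scale (-2.05 to 2.03), so a difference between the gene and its target was not detectable at this depth.

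The 2 cell markers differed from each other. *Cd207*, which encodes langerin, a lectin of Langerhans cell granules (chromosome 6, 83621201 to 83627851, minus strand), had 1039 reads in WT and 26 in *Igfbp7*-/-, or 30.3 and 0.743 RPM. The level was 36.0-fold lower, a log2 ratio of -5.17 (-6.27 to -4.56), next in rank after *H2-Eb1*. *Itgax*, which encodes CD11c, an integrin chain of dendritic cells and some macrophages (chromosome 7, 135273061 to 135294171, plus strand), had 579 and 124 reads, or 16.9 and 3.54 RPM, a log2 ratio of -2.22 (-2.67 to -1.85). Of the 8 members *Itgax* was lower by the smallest factor, 4.66-fold. Reads of *Cd207* per read of *Itgax* were 1.79 in WT and 0.210 in *Igfbp7*-/-, 8.53-fold lower (4.55 to 17.2).

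**Figure D2:**
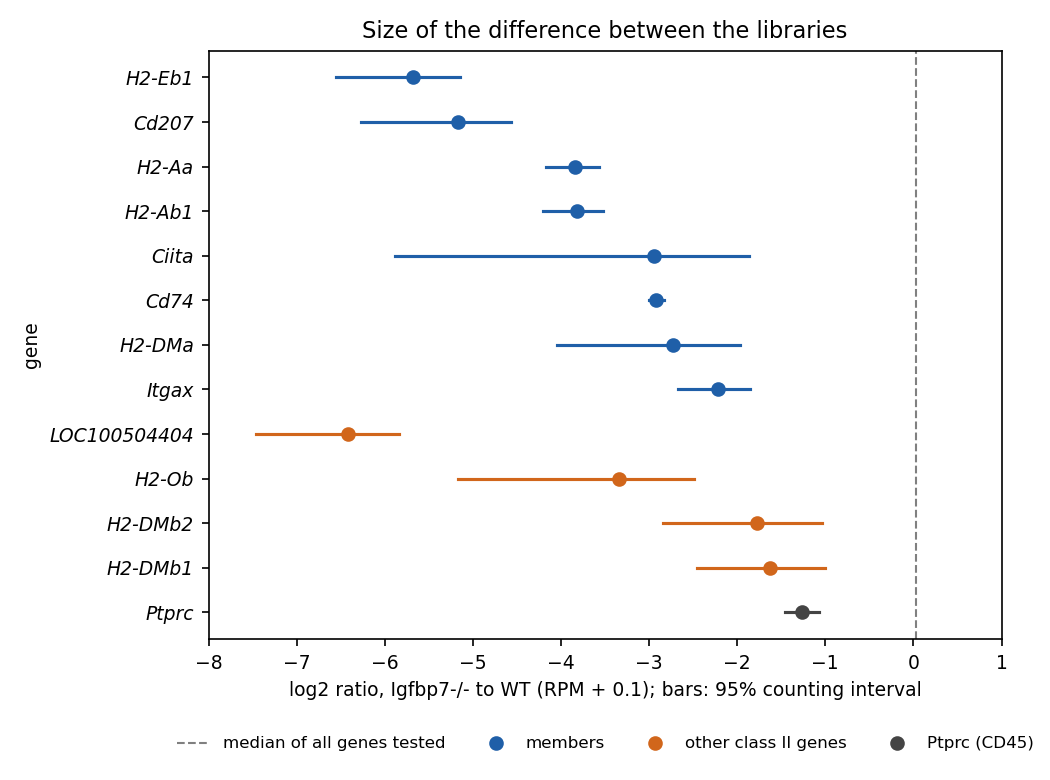
Log2 ratio of Igfbp7-/- to WT (RPM + 0.1) for the 8 members (blue), the other class II genes past the minimum (orange) and Ptprc, the gene of CD45 (grey), with 95% counting intervals as bars and the median of all genes tested, 0.035, as a dashed line. H2-Eb1 and Cd207 lie at -5.68 and -5.17, left of the intervals of H2-Aa and H2-Ab1, and Ptprc lies at -1.26.

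Levels were compared between genes as RPKM, the RPM per kilobase of gene length. In WT the order from the highest was *Cd74* (368.0 RPKM), *H2-Aa* (74.8), *H2-Ab1* (54.6), *H2-Eb1* (35.4), *Cd207* (19.8), *H2-DMa* (5.52), *Itgax* (4.19) and *Ciita* (0.384). Among neighbours in this order only *H2-DMa* and *Itgax* had overlapping counting intervals. In *Igfbp7*-/- the order was *Cd74* (48.7 RPKM), *H2-Aa* (5.14), *H2-Ab1* (3.78), *Itgax* (0.880), *H2-DMa* (0.727), *H2-Eb1* (0.633), *Cd207* (0.485) and *Ciita* (0.0333). There *H2-Aa* overlapped *H2-Ab1*, and from *Itgax* to *Cd207* each gene overlapped the next. *H2-Eb1* and *Cd207* thus stood above *Itgax* in WT and not in *Igfbp7*-/-, while *Cd74* and the A chains kept the top places.

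Other class II genes past the minimum were lower as well. Of 6 further class II chain and loading genes in the files, 4 passed the minimum and all 4 were lower, with a median log2 ratio of -2.56. Besides LOC100504404 these were *H2-Ob*, the beta chain of DO, a brake on DM known from B cells (4.40 and 0.343 RPM, log2 -3.35), *H2-DMb1* (4.19 and 1.29 RPM, log2 -1.63) and *H2-DMb2* (3.09 and 0.828 RPM, log2 -1.78). The last 2 encode near-identical DM beta chains, so the split of reads between them is uncertain. Of these 4 genes, all but *H2-DMb1* passed the minimum through the WT library alone. *H2-Eb2* (18 and 2 reads) and *H2-Oa* (18 and 7 reads) stayed below the minimum. Counting all symbols that begin with H2-, 7 of 9 class II genes passed and all 7 were lower (median -3.35), 4 of them members. Of 31 other H2 genes 21 passed, 10 being lower, 5 higher and 6 within 1.5-fold (median -0.55). The lower ones included *H2-T22* (-3.95), which had a lower ratio than either A chain, and *H2-T23* (-3.42). Large differences were thus not limited to class II genes.

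**Figure D3:**
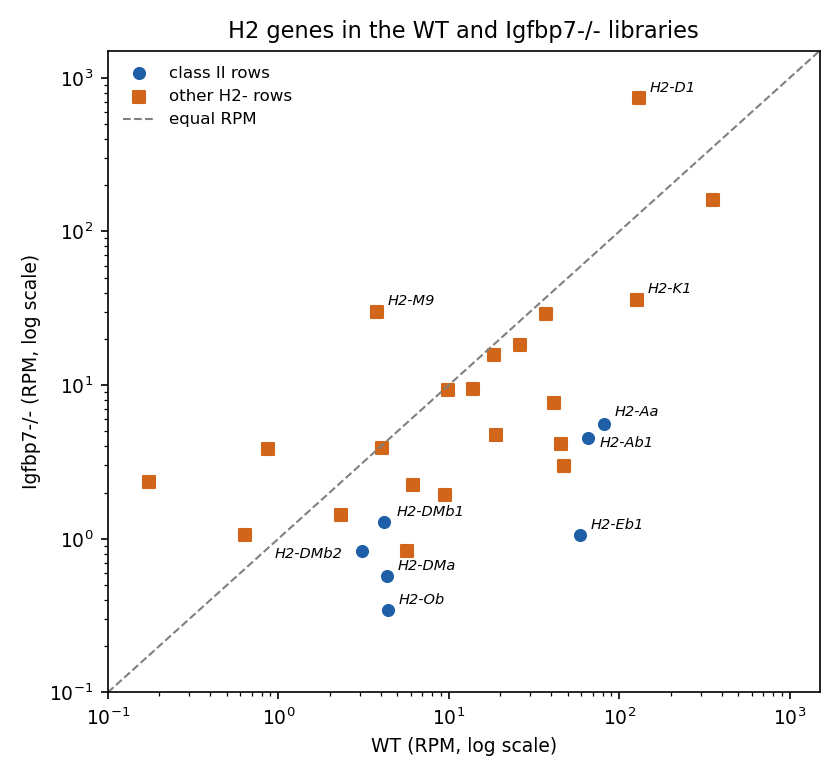
RPM in WT (x axis) against RPM in Igfbp7-/- (y axis), both on log scales, for the genes past the minimum whose symbol begins with H2-, with class II genes as blue circles, the others as orange squares and equal values as a dashed line. All 7 class II genes lie below the line. Those of the 21 others that lie above it include H2-D1 (130.7 and 741.0 RPM), H2-M9 (3.79 and 30.1 RPM) and H2-M1 (0.175 and 2.34 RPM).

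Upstream of peptide loading, 2 of 6 lysosomal genes were lower and 4 were within 1.5-fold (median log2 ratio -0.41). *Ctss*, cathepsin S, which trims the invariant chain, went from 37.1 to 6.83 RPM (-2.43), and *Lgmn*, an asparaginyl endopeptidase, from 97.4 to 35.4 RPM (-1.46). *Ifi30*, a lysosomal thiol reductase, was within 1.5-fold at 88.6 and 62.4 RPM (-0.51). The general proteases *Ctsb* (1107 and 891.4 RPM, log2 -0.31), *Ctsl* (548.7 and 528.1 RPM, log2 -0.06) and *Ctsd* (256.5 and 280.4 RPM, log2 0.13) were abundant in both libraries and also within 1.5-fold. The ubiquitin ligases that remove class II from the surface went in opposite directions, *March1* from 3.85 to 1.03 RPM (-1.81) and *March8* from 31.2 to 65.9 RPM (1.07).

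Genes of the factors on the class II promoter went in both directions. Of 7, 3 were lower, 1 was higher and 3 were within 1.5-fold (median log2 ratio -0.07). *Rfx5* (32.3 and 21.5 RPM, log2 -0.58), *Rfxap* (9.29 and 6.14 RPM, log2 -0.59) and *Nfyb* (19.6 and 13.0 RPM, log2 -0.59) lay close to the threshold on the lower side, and none of the 7 was lower when counts were scaled to the reads that listed genes held (median 0.11). *Nfya* went from 24.3 to 42.4 RPM (0.80). *Rfxank* (-0.07), *Creb1* (0.04) and *Nfyc* (0.14) were within it. *Ciita* itself was at -2.94.

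Of 10 regulators of *Ciita*, 6 were lower and 4 were within 1.5-fold (median log2 ratio -1.09). *Irf1*, an interferon-induced factor that acts on the *Ciita* promoter, went from 175.8 to 93.0 RPM (-0.92). The haematopoietic factors *Irf8* (29.1 and 6.54 RPM, log2 -2.14) and *Spi1* (4.37 and 1.43 RPM, log2 -1.55) were lower. So were *Prdm1*, a repressor of *Ciita* (85.9 and 32.0 RPM, log2 -1.42), and *Socs1*, an inhibitor of interferon signalling (3.41 and 1.37 RPM, log2 -1.25). The receptor chains *Ifngr1* (0.41) and *Ifngr2* (0.17) and the kinases *Jak1* (-0.35) and *Jak2* (-0.33) were within 1.5-fold.

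Class I presentation is active in nearly all cells. Of 9 listed genes of it, 8 were lower and *H2-D1* was higher, with a median log2 ratio of -1.82. Their summed level was 1720 RPM in WT and 1412 RPM in *Igfbp7*-/-, or 749.5 and 932.0 RPM without *B2m*. The higher sum without *B2m* came from *H2-D1* alone, at 130.7 and 741.0 RPM, as every other listed gene was lower. *B2m*, the light chain, went from 970.1 to 479.7 RPM (-1.02). The peptide transporter genes *Tap1* (92.9 and 17.4 RPM, log2 -2.41) and *Tap2* (33.8 and 18.8 RPM, log2 -0.84), the loading factor *Tapbp* (247.6 and 89.5 RPM, log2 -1.47) and the immunoproteasome genes *Psmb8* (37.4 and 10.2 RPM, log2 -1.86) and *Psmb9* (11.9 and 2.03 RPM, log2 -2.49) were lower. *Nlrc5*, the class I counterpart of *Ciita*, went from 67.8 to 17.0 RPM (-1.98).

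Leukocyte genes were read in both libraries in spite of the CD45 depletion, and fewer of their reads were found in *Igfbp7*-/-. The paper checked the depleted cells by flow cytometry and judged the remaining share with CD45, CD31 or Ter119 to be insignificant. Of 13 pan-leukocyte genes, 11 were lower and 2 were within 1.5-fold (median log2 ratio -1.21), and their summed level was 403.9 RPM in WT and 229.6 RPM in *Igfbp7*-/-. *Ptprc*, the gene of CD45 itself, went from 1492 to 633 reads, or 43.5 to 18.1 RPM (-1.26, interval -1.46 to -1.07). *Coro1a*, an actin regulator of leukocytes, went from 3.50 to 1.46 RPM (-1.21), *Cytip* from 92.4 to 58.3 RPM (-0.66) and *Laptm5* from 72.7 to 20.7 RPM (-1.81). *Lcp1* was alike in the libraries at 97.5 and 101.4 RPM (0.06). None of the 13 was at 0 in either library.

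The members were also set against *Ptprc*, as 1 leukocyte gene. Per read of *Ptprc*, the log2 change from WT to *Igfbp7*-/- was -4.58 for *H2-Eb1*, -4.08 for *Cd207*, -2.59 for *H2-Aa*, -2.58 for *H2-Ab1*, -2.26 for *Ciita*, -1.65 for *Cd74* and *H2-DMa* and -0.99 for *Itgax*. The interval of *Ciita* was the widest, -4.62 to -0.58, and that of *Itgax* lay nearest to no change, -1.45 to -0.54. All 8 counting intervals were below 0, but the members were selected on their ratios between these libraries, so nothing is read from this. *Ptprc* was used after its values had been seen, and the outcome depends on the gene. *Cd52* (158 and 27 reads, log2 -2.43) and *Hcls1* (902 and 186 reads, log2 -2.29), which are in the same list and were named after their values were seen, had lower ratios than *Itgax* (-2.22). Both ratios also lay within the intervals of *H2-DMa* (-4.04 to -1.97) and *Ciita* (-5.88 to -1.86) before this scaling. What part of the members' difference came with the lower leukocyte signal was not tested beyond this.

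Among cell types that make class II, other dendritic cell genes were mostly lower. Of 22 listed, 18 passed, 14 were lower and 4 were within 1.5-fold (median log2 ratio -1.53), with a summed level of 343.0 RPM in WT and 124.3 RPM in *Igfbp7*-/-. Highest in WT by RPM were the actin bundler *Fscn1* at 64.0 and 18.5 RPM (-1.78), the chemokine receptor *Ccr7*, which guides dendritic cells to lymph nodes, at 62.8 and 3.77 RPM (-4.02) and the costimulator *Cd86* at 51.5 and 4.14 RPM (-3.61). *Zbtb46*, a factor of conventional dendritic cells, went from 11.5 to 5.83 RPM (-0.97). *Flt3*, a growth factor receptor of their precursors, was below the minimum with 20 and 9 reads. The 4 genes within 1.5-fold, named after their values were seen, were *Irf4* (392 and 471 reads, log2 0.23), *Ly75* (191 and 211 reads, log2 0.11), *Id2* (1360 and 1409 reads, log2 0.02) and *Cd1d1* (182 and 186 reads, log2 0.0026).

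Of 10 B cell genes, 8 passed the minimum and all 8 were lower (median log2 ratio -2.34), and their summed level was 54.3 RPM in WT and 8.28 RPM in *Igfbp7*-/-. *Ms4a1*, the gene of CD20, went from 53 to 8 reads (1.54 and 0.228 RPM, log2 -2.32) and *Igj*, the joining chain of secreted antibodies, from 27.7 to 2.17 RPM (-3.61). *Blnk* (8.62 and 3.06 RPM, log2 -1.47) and *Pou2af1* (4.08 and 1.31 RPM, log2 -1.56) were lower by smaller factors. Apart from *Blnk*, *Pou2af1* and *Igj*, the B cell genes passed the minimum through the WT library alone.

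Of 17 macrophage genes, 12 were lower and 5 were within 1.5-fold (median log2 ratio -1.31). *Emr1*, the gene of F4/80, went from 8.42 to 2.91 RPM (-1.50), *Csf1r*, the receptor for their growth factor, from 17.0 to 9.40 RPM (-0.85), *Mpeg1* from 100.8 to 37.0 RPM (-1.44) and *Lyz2* from 66.9 to 24.1 RPM (-1.47). The summed level was 833.1 RPM in WT and 844.7 RPM in *Igfbp7*-/-, because *Cd14*, which epithelial cells can also express, had 469.9 and 677.4 RPM (0.53). Without *Cd14* the sums were 363.3 and 167.3 RPM. Most dendritic cell and macrophage genes and all B cell genes past the minimum were thus lower along with the members, and their part in the members' difference was not tested.

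Other cell types did not share one direction. Of 8 T cell genes past the minimum 3 were lower, 2 higher and 3 within 1.5-fold (median log2 ratio -0.36, sums of 84.1 and 63.9 RPM), with *Cd3e* at 9.44 and 2.83 RPM, *Cd3d* at 30 and 8 reads and *Thy1*, the highest of the list in RPM, at 51.9 and 41.0 RPM. Of 4 NK cell genes 1, *Gzma* (14.2 and 4.88 RPM), was lower, and *Ncr1* had 24 and 20 reads (median -0.34, sums of 19.1 and 9.51 RPM). Of 5 neutrophil genes 4 were lower, *S100a9* among them at 11.6 and 4.83 RPM, and *S100a8* was within 1.5-fold at 17.3 and 21.2 RPM (median -1.24, sums of 42.3 and 31.9 RPM). *Ly6g*, a defining neutrophil marker, had no read in WT and 1 in *Igfbp7*-/-. Of 5 mast cell genes 1, *Cpa3* (12.0 and 7.91 RPM), was lower, 2 were higher and 2, with *Kit*, the highest in RPM, at 70.4 and 99.6 RPM among them, were within 1.5-fold (median 0.50, sums of 105.1 and 133.5 RPM).

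Endothelial genes, whose cells were also targeted by the depletion, were lower in 5 of 6 (median log2 ratio -1.48, sums of 1129 and 374.8 RPM), among them *Pecam1*, the gene of CD31 (322.5 and 88.9 RPM), and *Cdh5*, a cadherin of vessel walls (583.7 and 183.5 RPM). All 3 erythroid genes past the minimum were within 1.5-fold (median 0.06, or -0.08 without the 20 most abundant genes, sums of 888.5 and 997.4 RPM), with the haemoglobin gene *Hbb-b1* at 668.9 and 696.9 RPM. Fibroblast genes were lower in 4 of 6 (median -0.79, sums of 9060 and 4582 RPM), with *Lum* at 401.9 and 84.1 RPM and *Pdgfra* within 1.5-fold at 97.0 and 132.8 RPM. Of 6 epidermis genes only *Krt10* passed (1.34 and 0.685 RPM, log2 -0.87), and the 6 summed to 3.15 and 1.43 RPM.

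The mammary epithelial genes moved the other way in sum, from 2248 RPM in WT to 3326 RPM in *Igfbp7*-/-, with 2 of 7 higher, 2 lower and 3 within 1.5-fold (median log2 ratio 0.38). The luminal keratin genes *Krt8* (268.1 and 789.0 RPM, log2 1.56) and *Krt18* (250.4 and 1174 RPM, log2 2.23) were higher. The basal keratin genes *Krt14* (325.9 and 148.4 RPM, log2 -1.13) and *Krt5* (579.3 and 182.3 RPM, log2 -1.67) were lower. *Cdh1*, the gene of E-cadherin (349.2 and 454.8 RPM), *Epcam* (338.3 and 481.9 RPM) and *Elf5* (137.3 and 95.9 RPM, log2 -0.52) were within 1.5-fold. The higher sum came from *Krt8* and *Krt18*, as the other genes did not share one direction. Marker genes of several other cell types thus differed between the libraries along with those of antigen presenting cells, and their part in the members' difference was not tested.

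**Figure D4:**
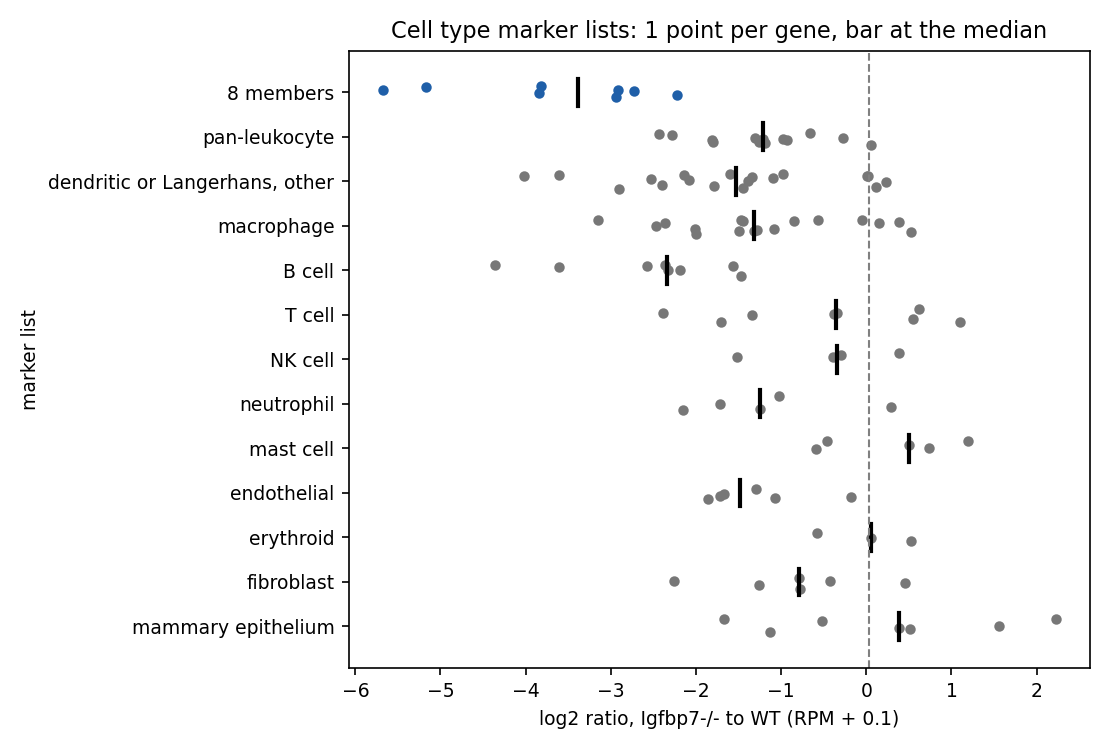
Log2 ratio of Igfbp7-/- to WT (RPM + 0.1) for each gene past the minimum (1 point per gene, spread vertically for legibility only) in the 8 members (blue) and in 12 cell type lists (grey), with the median of each list as a black bar and the median of all genes, 0.035, as a dashed line. The median is -3.38 for the members, which were selected on these ratios, -2.34 for the B cell list and -1.53 for the other dendritic cell genes.

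The genes whose log2 ratio came nearest to the members' median of -3.38, among 8195 other genes that reached 10 RPM in either library, were *Mmp13* (179.5 and 17.4 RPM, log2 -3.36), *Gbp9* (99.0 and 9.62 RPM, log2 -3.35), *Slc25a1* (112.4 and 10.4 RPM, log2 -3.42), *H2-T23* (45.4 and 4.14 RPM, log2 -3.42), *Glipr1* (14.8 and 1.29 RPM, log2 -3.43) and *I830012O16Rik* (123.0 and 12.2 RPM, log2 -3.33). Likeness was measured as the distance between log2 ratios over 1 pair of libraries, at most 0.0532 for these 6. They include a matrix metalloproteinase, an interferon-inducible guanylate-binding protein, a mitochondrial citrate carrier and a class I molecule of the T region.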

How the data were processed

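Poly(A) RNA of lineage-depleted MECs was sequenced on a SOLiD instrument as paired reads of 35 and 75 bp. The authors mapped them with a Bowtie-based pipeline in GeneSifter v4.0 with at most 3 mismatches. Their processing notes name Bowtie 0.12.3, SAMtools 0.1.15 and build mm9, whereas the methods name a human build. For each gene the authors deposited the raw read count, the RPM (count per 1000000 mapped reads) and the RPKM (RPM per kilobase). Reads that fall on no listed gene enter the divisor, so more of them in a library make each of its RPM values smaller. The handling of reads with several matches was not given in the sources used here.

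Genotypes came from the labels. Ratios were computed from the deposited RPM plus 0.1, for genes reaching 1 RPM in either library and with 1.5-fold as the threshold. No test was made, because each genotype had 1 library. Intervals (95%, Clopper-Pearson) used counts divided by 2, since 75.8% of WT and 74.1% of *Igfbp7*-/- counts from 1 to 20 were even. A count of 3 reads, the smallest amount taken as detectable, were worth 0.0874 and 0.0857 RPM. Rows without a symbol were left out. *March1*, *March8* and *Spi1* were found by their titles and *H2-Ea* by its gene number, and *Hbb-b2* was not analysed here. The members and all gene lists were chosen with earlier results of these data known. The genes named are the members, *Igfbp7*, the class II pathway genes past the minimum, the first 2 and the 3 most abundant genes of each cell type list (not all are printed, and some listed genes are not reported here), the 6 nearest genes and LOC100504404. Alternatives were other pseudocounts, scalings (edgeR 4.0.16 TMM, DESeq2 1.42.0 size factors), minimums and thresholds. The scripts (Python 3.11.15, scipy 1.17.1, R 4.3.3) were tested on simulated counts. Gene positions are from GENCODE on NCBIM37 and promoters from RefSeq on GRCm38.p6, and no coordinate was converted between the builds.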

Additional observations from a re-analysis of the deposited data

How the results depend on the processing

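All 8 members were lower by at least 1.5-fold in every alternative that measured all 8. When 10 RPM was required in either library 6 were measured and 6 were lower, and with a minimum of 1 RPM in both libraries 5 were measured and 5 were lower. With a pseudocount of 1 RPM, 5 of 8 were lower by at least 4-fold, and from RPKM 7 of 8 were. Of 64 recomputed member ratios, 49 moved by less than their counting interval, 15 moved by more and 0 changed sign. Scaled to *Ptprc* reads, an alternative chosen after seeing the data, the members' median was -2.115 in place of -3.381. The genes lower by at least 1.5-fold, 3231 as reported, were 5279 with no minimum, 1672 when 10 RPM was required in either library and 1936 with a threshold of 2-fold. Of the genes past 1.5-fold, 51.8% were lower as reported, 37.8% when counts were scaled to the reads that listed genes held and 62.6% without the 20 highest genes. These scalings moved the median log2 ratio of all genes to 0.224 and -0.1145. No paired analysis was possible because each genotype had 1 library, and no library could be left out. The variation between animals was not measured, and values of a few reads, such as those of *Ciita* in *Igfbp7*-/-, are limited by depth.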
